A study of Pinellia ternata with 12 samples.

Results

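In *Pinellia ternata* leaf, 2 unigenes that carry the names of growth coactivators, TRINITY_DN48595_c0_g1 and TRINITY_DN70355_c4_g2, were followed through heat stress. They were 2 of the 208217 unigenes (assembled gene clusters) in the deposited table. The first was named GRF1-interacting factor 1 after a match to *Phoenix dactylifera*, and the second calcium-responsive transcription coactivator. The study had placed both on its list of miRNA and target pairs because their levels were higher under heat, and because the level of their predicted regulator gma-miR172h-5p was lower. The difference between heat and control in these libraries was thus used to choose them, and it is given as a description without a test. The study also ran qRT-PCR on miRNAs that by its text include gma-miR172h-5p, and on predicted targets. It reported the same directions as in sequencing, and those measurements were not used here. The names rest on matches to other species and could not be checked, since the sequences of the unigenes were not used here.

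Seedlings of one variety were grown from tubers at 25 ℃ under 16 h of light. Control leaves (C) were taken at 0 h of heat (day 0), and heat leaves (G) after 24 h at 40 ℃ (day 1), with 3 libraries in each group for RNA-seq and 3 for miRNA-seq. A treatment tag in the labels calls all of them heat-treated, so titles, checked against source and day, set the grouping. The hour of day of sampling was not given in the sources used here, and temperature cannot be told apart from the day. Leaf samples were sequenced without separating cell types, so a change in the share of a cell type cannot be told apart from a change of RNA per cell. The tissue was not checked against leaf markers, as names were at hand only for unigenes that the study lists as changed under heat or as miRNA targets. Abundance is given as TPM (a level per length of transcript, scaled to the same total in every library), and the number of reads behind a TPM value is unknown.

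GRF-interacting factors (GIFs) are plant relatives of the animal coactivator SS18. They bind no DNA themselves. They join growth-regulating factors (GRFs), which do bind DNA, and bring SWI/SNF chromatin remodelling complexes to the genes that GRFs control. In Arabidopsis the best known member, GIF1 or ANGUSTIFOLIA3, keeps cells of the young leaf dividing, and GRF mRNAs are cut under the control of miR396. The name calcium-responsive transcription coactivator comes from an animal protein of the same SS18 group, which activates genes in neurons after calcium entry. A plant unigene with that name may therefore carry the SS18 type of domain without being shown to respond to calcium. The miR172 hairpin gives a 3p strand, which is known to repress APETALA2-type factors, and a 5p strand, which is usually the less stable partner.

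The sequence of the predicted regulator is shown first, beside its closest relatives of the same length in the miRNA table, because several names differ from it by only 1 or 2 bases. Of the 8 names of its length (21 bases) within 2 bases, the 5 with at least 50 reads in all libraries together are printed, with the 3p-type gma-miR172k. Longer or shorter 5p-type names, such as mtr-miR172d-5p, were not compared base by base. Capitals mark the seed (bases 2 to 8 from the 5′ end), and the sequences were read from the list of known miRNAs that accompanies the study.
gma-miR172h-5p: gCAGCAGCaucaagauucaca
aly-miR172b-5p: gCAGCACCaucaagauucaca
lus-miR172j: gCAGCAUCaucaagauuccca
gra-miR172b: gCAGCAUUaucaagauucaca
mtr-miR172c-5p: gUAGCAUCaucaagauucaca
stu-miR172e-5p: gCAACAUCaucaagauucaca
gma-miR172k: uGAAUCUUgaugaugcugcau
The first 6 are of the 5p type and end in nearly the same bases, while gma-miR172k is a 3p-type sequence. Counted from the 5′ end of gma-miR172h-5p, aly-miR172b-5p differs by G7C, lus-miR172j by G7U and A19C, gra-miR172b by G7U and C8U, mtr-miR172c-5p by C2U and G7U, and stu-miR172e-5p by G4A and G7U. Each of these 5 thus differs at position 7, within the seed, and no other name in the miRNA table shared the seed CAGCAGC.

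TRINITY_DN48595_c0_g1, the GRF1-interacting factor 1 unigene, was low in control leaves, below the median unigene. Its level was 0.298, 0.143 and 0.244 TPM in control replicates 1, 2 and 3, and 5.42, 7.59 and 3.75 TPM in heat replicates 1, 2 and 3. Every heat library lay above every control library, and the lowest heat value was 12.6 times the highest control value. Control libraries averaged 0.228 ± 0.0788 TPM and heat libraries 5.59 ± 1.92 TPM (SD, n = 3 per group), a ratio of 24.5. In the controls 33.9% to 42.3% of all unigenes had a lower TPM. Under heat 83.5% to 91.9% did.

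TRINITY_DN70355_c4_g2, the calcium-responsive transcription coactivator unigene, was low but measurable in control leaves. It stood at 1.16, 1.16 and 0.627 TPM in control replicates 1, 2 and 3, and at 7.63, 9.32 and 8.31 TPM in heat replicates 1, 2 and 3. Again no heat library overlapped with a control library, and the lowest heat value was 6.59 times the highest control value. Control libraries averaged 0.980 ± 0.305 TPM and heat libraries 8.42 ± 0.852 TPM (SD, n = 3 per group), a ratio of 8.59. Between 61.1% and 71.5% of unigenes had a lower TPM in the controls, against 91.5% to 93.4% under heat.

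**Figure D1:**
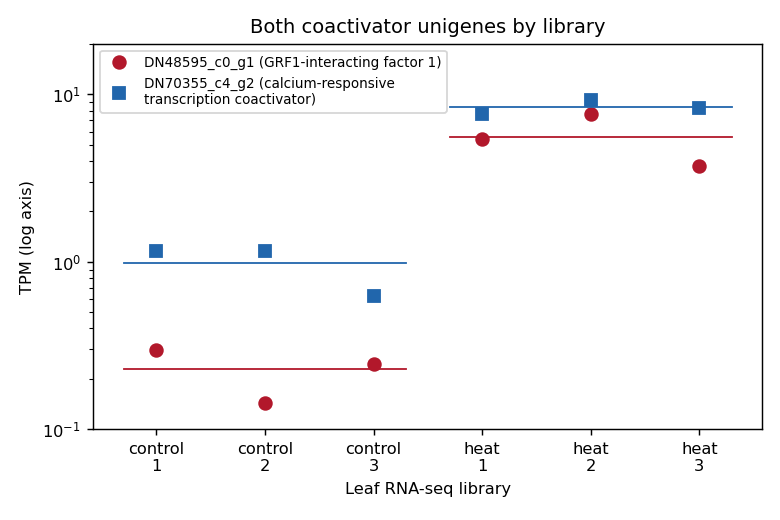
TPM (log axis) of both coactivator unigenes in each RNA-seq library, with circles for TRINITY_DN48595_c0_g1, squares for TRINITY_DN70355_c4_g2 and lines for the group means. The heat libraries sit between 3.75 and 9.32 TPM and the control libraries between 0.143 and 1.16 TPM, with a wider gap for TRINITY_DN48595_c0_g1.

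On the scale used for all unigenes, log2(TPM + 1), the differences between heat and control were 2.38 (standard error 0.31) for TRINITY_DN48595_c0_g1 and 2.26 (standard error 0.27) for TRINITY_DN70355_c4_g2. This scale understates the change of low unigenes. With 0.1 in place of 1 added to the TPM, the differences were 4.09 and 3.02. The 2 unigenes entered the tested set (68978 unigenes that averaged 1 TPM or more across libraries) only through their heat values, since their control means were 0.228 and 0.980 TPM. Both had every heat library above every control library, as did 22.0% of the tested unigenes. The limma fit called 6.0% of the tested unigenes higher, by a log2 difference over 1 at an adjusted p (Benjamini-Hochberg) under 0.05. Of all unigenes it called in either direction 59.7% were higher, a share that fell to 40.3% after rescaling by the median ratio and 45.3% after quantile normalization. The median log2 difference over the tested unigenes was 0.167, or −0.02 after rescaling. A larger log2 difference than that of TRINITY_DN48595_c0_g1 was found for 0.642% of the tested unigenes, and than that of TRINITY_DN70355_c4_g2 for 0.761%. A gap between the groups of at least 12.6 times was held by 340 unigenes, of which 230 were listed at 0 in all controls and above 0 in all heat libraries, and a gap of at least 6.59 times by 479. Since the study chose both unigenes for this difference, nothing is read from these ranks.

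The 2 coactivators differed in how even they were across the heat libraries. TRINITY_DN70355_c4_g2 had a coefficient of variation of 10.1% over the heat libraries, and TRINITY_DN48595_c0_g1 of 34.4%. The 17219 tested unigenes with a heat mean of 4 to 10 TPM had a median of 29.3% (upper quartile 43.5%). The first was thus more even, and the second slightly less even, than the median unigene of like level. Both were chosen on these same heat values, and such a choice favours an even level within a group. The comparison is a description and was not tested. In the controls the coefficients were close, at 31.2% and 34.5%. TRINITY_DN48595_c0_g1 was lowest in heat replicate 3 and TRINITY_DN70355_c4_g2 in heat replicate 1, while both were highest in heat replicate 2.

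TRINITY_DN70355_c4_g2 was the more abundant of the 2 in every library. Its TPM was 3.88, 8.11 and 2.57 times that of TRINITY_DN48595_c0_g1 in control replicates 1, 2 and 3, and 1.41, 1.23 and 2.21 times in heat replicates 1, 2 and 3. The ratios of the 2 groups did not overlap and were lower under heat. The difference in TPM between the 2 unigenes was nevertheless wider under heat, at 1.73 to 4.56 TPM against 0.383 to 1.01 TPM in controls. Both measures come from the values on which the unigenes were chosen and were not tested. Summed, the 2 unigenes came to 1.45, 1.30 and 0.871 TPM in the controls and to 13.0, 16.9 and 12.1 TPM under heat.

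The other unigenes that the assembler placed beside TRINITY_DN70355_c4_g2 did not show its pattern. Trinity numbers a cluster of overlapping sequence (DN70355), its components (c4) and the genes within a component (g1 to g3), and genes of 1 component may share reads. TRINITY_DN70355_c4_g3 stood at 2.79, 2.39 and 4.09 TPM in control replicates 1, 2 and 3 and at 4.08, 1.89 and 6.71 TPM in heat replicates 1, 2 and 3. These ranges overlap, and both the lowest and the highest value came from heat libraries. Its log2 difference was 0.26 (standard error 0.37, adjusted p = 0.681 from limma over all tested unigenes), and −0.071 without heat replicate 3. TRINITY_DN70355_c4_g1 was at 0.427 to 0.788 TPM in controls and 0.355 to 0.914 TPM under heat, below the minimum for the test. With no filter its log2 difference was −0.03 (adjusted p = 0.966 from limma). The 3 unigenes of other components of the same number, c0_g1, c1_g1 and c3_g1, were also below the minimum, with overlapping groups. No second unigene of the number DN48595 was in the table.

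The make-up of the component differed between the groups. Of the summed TPM of the 3 unigenes of TRINITY_DN70355_c4, the coactivator c4_g2 held 25.6%, 29.2% and 11.4% in control replicates 1, 2 and 3, and 63.2%, 79.9% and 52.2% in heat replicates 1, 2 and 3. In the controls c4_g3 was the largest of the 3, with 60.1% to 74.3% of the sum, and under heat it held 16.2% to 42.1%. The sum itself was 4.51, 3.97 and 5.51 TPM in controls and 12.1, 11.7 and 15.9 TPM under heat. These shares include the value on which c4_g2 was chosen and were not tested.

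**Figure D2:**
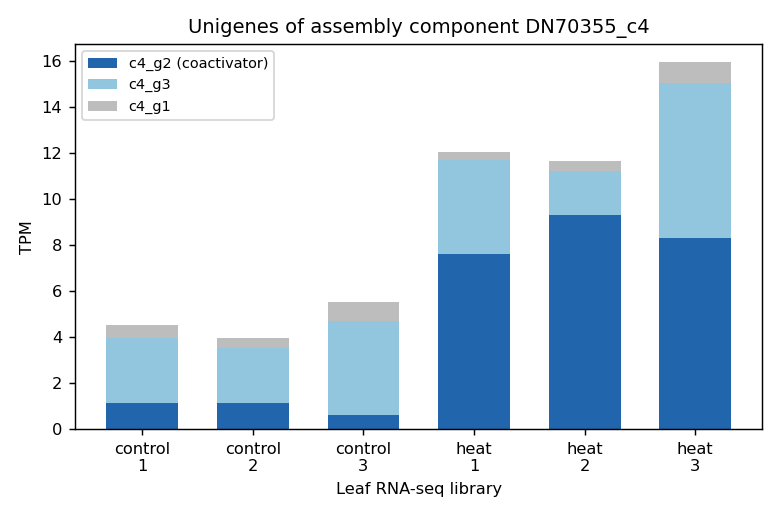
TPM of the 3 unigenes of assembly component TRINITY_DN70355_c4 stacked for each RNA-seq library, with c4_g2 as the lowest part of each bar, then c4_g3 and c4_g1. The lowest part is at most 1.16 TPM in controls and at least 7.63 TPM under heat, while c4_g3 varies between 1.89 and 6.71 TPM without separating the groups.

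The unigenes whose levels followed the 2 coactivators most closely were taken by the Pearson correlation of log2(TPM + 1) over the 6 libraries. Because the libraries fall into 2 groups, such a correlation mostly reflects the step from control to heat, and it is given without a p. For TRINITY_DN70355_c4_g2 the 3 highest of 68976 unigenes were TRINITY_DN67366_c0_g1 (r = 0.9995), TRINITY_DN70599_c3_g1 (r = 0.9993) and TRINITY_DN71325_c1_g1 (r = 0.9992). TRINITY_DN67366_c0_g1, named as the histone methyltransferase ATXR2 of Arabidopsis, also had nearly the same levels. It stood at 0.850, 0.885 and 0.484 TPM in control replicates 1, 2 and 3 and at 6.67, 7.90 and 7.495 TPM in heat replicates 1, 2 and 3. TRINITY_DN71325_c1_g1, named as a chloroplast alpha-amylase that breaks down starch, had the same shape at a higher level, with 7.80 to 10.3 TPM in controls and 32.2 to 35.8 TPM under heat. TRINITY_DN70599_c3_g1, for which the study's list of changed unigenes gave no name, went from 12.5 to 13.9 TPM in controls to 23.2 to 25.9 TPM under heat.

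For TRINITY_DN48595_c0_g1 the 3 highest of 68977 unigenes were TRINITY_DN50373_c1_g2 (r = 0.9994), TRINITY_DN53683_c0_g2 (r = 0.9986) and TRINITY_DN56836_c1_g1 (r = 0.9981). Names were looked up only in the study's list of unigenes changed under heat, which gave none for these 3. TRINITY_DN53683_c0_g2 was listed at 0 in all 3 controls and stood at 1.98, 2.80 and 1.43 TPM in heat replicates 1, 2 and 3. TRINITY_DN56836_c1_g1, which the study lists as a predicted target of miR156 names, was at 0, 0 and 0.0378 TPM in the controls and at 3.09, 4.87 and 2.38 TPM under heat. Both thus shared the order of the heat libraries, highest in replicate 2 and lowest in replicate 3. TRINITY_DN50373_c1_g2 had the same order over a narrower range, from 0.932 to 1.03 TPM in controls to 1.81 to 2.29 TPM under heat. An r over 0.99 was held by 178 unigenes for TRINITY_DN70355_c4_g2 and by 40 for TRINITY_DN48595_c0_g1. The 2 coactivators were less alike than these, with r = 0.976 between them. That placed TRINITY_DN70355_c4_g2 at rank 317 for TRINITY_DN48595_c0_g1, and TRINITY_DN48595_c0_g1 at rank 778 for TRINITY_DN70355_c4_g2.

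Both coactivators were among 20 unigenes that the study predicted as targets of gma-miR172h-5p, in the part of the target list at hand, which gives no position of a site for either of them. The other 18 are those left once the study had listed the 2 coactivators as higher under heat in these same libraries. A lack of further calls higher among them was thus partly set in advance. It is given beside the general share as a description. Of the 18, 7 had a mean of at least 1 TPM, and none of these 7 was called higher or lower by limma, against 6.0% and 4.05% of all tested unigenes. At an unadjusted p under 0.05, 2 of the 7 were higher and 1 was lower, a share to be set against 28.2% of all tested unigenes at that threshold. Their log2 differences ran from −0.86 to 0.79 with a median of 0.01, beside 0.167 over all tested unigenes. TRINITY_DN75784_c2_g1 came nearest to a call. It was at 4.45, 5.20 and 4.89 TPM in control replicates 1, 2 and 3 and at 9.94, 8.48 and 8.29 TPM in heat replicates 1, 2 and 3, with no overlap. Its log2 difference was 0.76 (standard error 0.24, adjusted p = 0.0696 from limma), which misses both the p and the fold threshold.

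TRINITY_DN65116_c1_g2 was the other of the 7 with every heat library above every control library, and 2 of 7 is near the 22.0% of all tested unigenes. It had 1.79, 2.26 and 0.933 TPM in control replicates 1, 2 and 3 and 3.91, 4.31 and 2.46 TPM in heat replicates 1, 2 and 3 (log2 difference 0.79, standard error 0.31, adjusted p = 0.134 from limma). TRINITY_DN74011_c5_g3 lay on the other side, with 9.53, 9.06 and 5.23 TPM in controls and 5.43, 4.001 and 2.44 TPM under heat, where heat replicate 1 overlapped with control replicate 3 (log2 difference −0.86, standard error 0.32, adjusted p = 0.116 from limma). TRINITY_DN67209_c0_g1, the most abundant predicted target, spread from 36.9 to 107 TPM under heat around controls of 76.4 to 87.7 TPM (log2 difference −0.40, adjusted p = 0.490 from limma). The remaining 3, TRINITY_DN69509_c1_g1, TRINITY_DN65699_c1_g4 and TRINITY_DN66857_c0_g2, had overlapping groups and log2 differences of 0.49, 0.01 and −0.11.

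The 11 predicted targets below the minimum had means of 0.229 to 0.963 TPM and reached 2.20 TPM at most in a library. In 3 of the 11 every heat library lay above every control library, beside 14.2% of the 79528 unigenes in that range of means (0.229 to 1 TPM), so that the count differs from the share by only 1 or 2 unigenes. TRINITY_DN53698_c0_g2 was the highest of these, with 0.379, 0.0208 and 0.524 TPM in controls and 1.18, 1.48 and 2.20 TPM under heat. In the limma fit with no filter on TPM all 18 were tested and again none was called, where 1.06% of 207462 unigenes were called higher and 0.827% lower, so that no call among 18 is near the general share. At an unadjusted p under 0.05 there were 5 of the 18, beside 16.3% of all unigenes in that fit. None of the other 18 was thus called in these fits, and the difference between the coactivators and the other predicted targets was not tested, since the coactivators had been chosen for it.

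**Figure D3:**
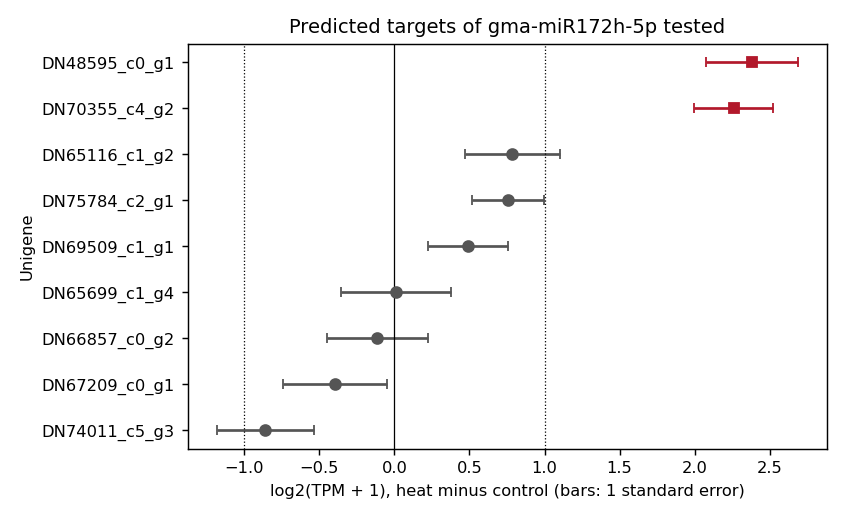
Difference in log2(TPM + 1), heat minus control, for the 9 predicted targets of gma-miR172h-5p with a mean of at least 1 TPM, with squares for the 2 coactivators, circles for the other 7, bars of 1 standard error and dotted lines at the fold threshold of 1. The coactivators, which were chosen for this difference, lie at 2.38 and 2.26, and the other 7 between −0.86 and 0.79.

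Another 4 unigenes named as transcription cofactors were more abundant than the 2 GIF-type coactivators in both groups. They were chosen here from unigenes that the study lists as higher under heat on the same libraries, so their direction is not independent evidence. TRINITY_DN53970_c3_g2 (MBF1c, a coactivator of heat tolerance in Arabidopsis) was at 10.3 to 15.3 TPM in controls and 93.6 to 126 TPM under heat. TRINITY_DN55643_c0_g1 and TRINITY_DN55643_c0_g2, 2 unigenes named MBF1b that may share reads, stood at 28.4 to 43.2 and 80.6 to 108 TPM in controls. Under heat TRINITY_DN55643_c0_g1 was at 86.3 to 157 TPM and TRINITY_DN55643_c0_g2 at 189 to 204 TPM. TRINITY_DN63657_c1_g1, a component of the Paf1 elongation complex that the study predicts as a target of another miR172 5p name, was nearer in level, with 7.19 to 8.70 TPM in controls and 12.3 to 20.3 TPM under heat. The ratio of means was 8.41 for MBF1c, close to the 8.59 of TRINITY_DN70355_c4_g2, and at most 3.52 for the other 3, against 24.5 for TRINITY_DN48595_c0_g1.

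The predicted regulator gma-miR172h-5p was measured in separate small RNA libraries as RPM (a level scaled to the reads assigned to the listed miRNAs, with no correction for length). It had 226, 246 and 458 reads in control replicates 1, 2 and 3, or 245, 121 and 525 RPM. In heat replicates 1, 2 and 3 it had 86, 9 and 107 reads, or 82.9, 18.8 and 72.5 RPM. Every heat library lay below every control library, as for 9.89% of all names in the table. The nearest values were 121 RPM in control replicate 2 (95% exact binomial interval 106 to 137, counting error only) and 82.9 RPM in heat replicate 1 (66.3 to 102). Control libraries averaged 297 ± 207 RPM and heat libraries 58.1 ± 34.4 RPM (SD, n = 3 per group), so that the spread within the controls was wide. The log2 difference was −2.34 (standard error 0.77) on log2(RPM + 1), and it ranged from −2.86 to −1.67 with 1 library left out. The study chose this miRNA for its fall, and no test is given.

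The 5p-type sequences of miR172 held a further difference between libraries. The other 16 names of that type summed to 313 and 304 RPM in control replicates 1 and 3, to 1522 RPM in control replicate 2, and to 113, 136 and 113 RPM in heat replicates 1, 2 and 3. Control replicate 2, the deepest library, thus held far more of these other sequences, and gma-miR172h-5p made up 7.34% of its 5p-type RPM against 43.9% and 63.3% in control replicates 1 and 3. In heat replicates 1, 2 and 3 that share was 42.4%, 12.2% and 39.1%. ata-miR172c-5p held the largest part of the excess, with 746 RPM in control replicate 2 and 4.59 to 40.1 RPM in the other libraries. lus-miR172j, which differs from gma-miR172h-5p by 2 bases, was at 258 RPM in control replicate 2 and at most 2.09 RPM in any other library. gra-miR172b was at 154 RPM there and at 5.74 to 16.2 RPM elsewhere. aly-miR172b-5p, which differs by 1 base, was at 23.0 RPM there and at 1.15 to 6.26 RPM elsewhere. Not all near relatives were lower under heat. stu-miR172e-5p overlapped between controls (4.59 to 11.3 RPM) and heat (1.93 to 10.4 RPM), with a log2 difference of −0.25. bdi-miR172a-5p, with only 26 reads in all, was higher in every heat library (4.17 to 5.78 RPM) than in any control (1.08 to 3.43 RPM), as were 4.51% of all names. Its log2 difference was 0.96 (standard error 0.68). A fall of gma-miR172h-5p without control replicate 2 had a log2 difference of −2.86, and whether the reads of these near-identical names were shared out by the counting was not tested.

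**Figure D4:**
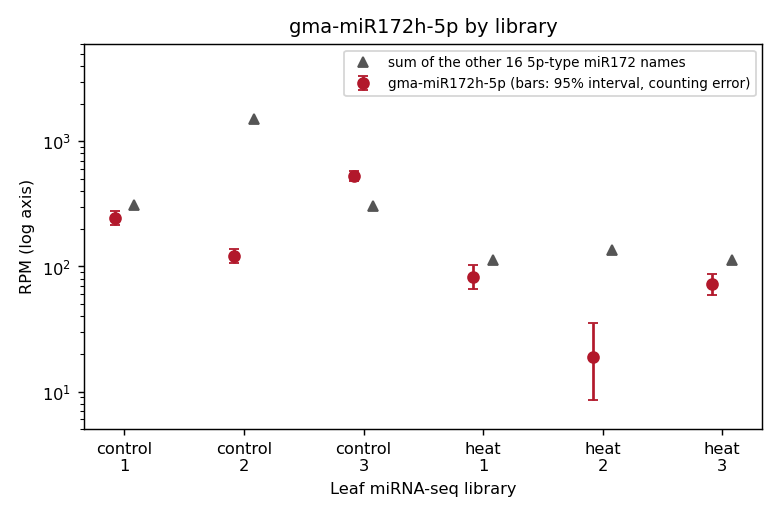
RPM (log axis) of gma-miR172h-5p in each miRNA-seq library (circles, with 95% exact binomial intervals that cover counting error only) and the sum of the other 16 names of 5p-type miR172 sequences (triangles). gma-miR172h-5p lies at 121 to 525 RPM in controls and 18.8 to 82.9 RPM under heat, and the triangle of control replicate 2 stands apart at 1522 RPM.

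Of the 35 other miR172 names, limma on log2(RPM + 1) called 3 lower and none higher by a log2 difference over 1 at an unadjusted p under 0.05, against 7.14% lower and 2.13% higher of all names. None passed at an adjusted p under 0.05, as 0.0626% of all names did. edgeR on the recovered reads called 5 lower and none higher, against 9.20% and 3.19% of all names, with none of the 5 left after adjustment. The 3 were mtr-miR172c-5p, stu-miR172a-5p and the 3p-type gma-miR172k. mtr-miR172c-5p, at 62.8, 57.9 and 153 RPM in control replicates 1, 2 and 3 and 15.4, 6.26 and 11.5 RPM in heat replicates 1, 2 and 3, had the lowest p of them (log2 difference −2.86, standard error 0.65, adjusted p = 0.341 from limma). The count of 3 moved with single libraries, to 7 when control replicate 3 was left out, 5 for control replicate 2 and 1 for heat replicate 3. The miR396 family, whose targets in Arabidopsis are the GRF partners of GIF proteins, had 40 names. At the unadjusted threshold limma called 10 lower and none higher, against 7.14% and 2.13% of all names. At the adjusted threshold it called none. edgeR called 14 lower and 1 higher, against 9.20% and 3.19% of all names, again none after adjustment. Whether these names share reads was not tested, so the calls are not counted as separate falls. GRF unigenes were not followed here.

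Whether libraries of the same number in the 2 assays came from the same plants was not given in the sources used here, so levels of miRNA and unigenes were set side by side by group. With 2 separate groups of 3 libraries, no correlation between miRNA and unigene was calculated.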

How the data were processed

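Leaf libraries of 3 control and 3 heat samples were measured by RNA-seq and by miRNA-seq, as biological replicates according to the study. The authors filtered strand-specific HiSeq2500 reads, assembled unigenes de novo with Trinity and deposited TPM values estimated with Salmon, without counts, so no count model was fitted to unigenes. For small RNA, the authors trimmed adapters with cutadapt, removed Rfam matches, matched reads to known plant miRNAs and deposited RPM values. Versions and any rule for reads that match several names are not given in the sources used here. Whole reads were recovered from the RPM steps (100% of 9582 values whole within 0.01 reads), giving 871814 to 2039055 reads in control and 479324 to 1475482 in heat libraries. Intervals cover counting error only.

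Unigenes averaging 1 TPM or more were fitted with limma 3.58.1 in R 4.3.3 (eBayes with trend) on log2(TPM + 1), with Benjamini-Hochberg adjustment over all 68978, and called where the log2 difference exceeded 1 in size at an adjusted p under 0.05. miRNA names were fitted likewise on log2(RPM + 1) and called at an unadjusted p under 0.05, as the study's methods set, with edgeR 4.0.16 (quasi-likelihood test) on recovered reads as an alternative. The procedures were tested on simulated data. Named items were both coactivators, their component, the other predicted targets, 4 cofactor unigenes, the 3 most correlated unigenes each, and miR172 names by sequence type and reads. The 5p-type sequences shown, and bdi-miR172a-5p, were chosen after their values were seen. The members and lists were chosen with earlier results of these data known.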

Additional observations from a re-analysis of the deposited data

How the results depend on the processing

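Both coactivators kept their direction and moved by less than the spread between replicates, except with a pseudocount of 0.1 TPM (log2 differences of 4.09 for TRINITY_DN48595_c0_g1 and 3.02 for TRINITY_DN70355_c4_g2). With 1 library left out they ranged from 2.17 to 2.60 and from 2.12 to 2.33, and gma-miR172h-5p from −2.86 to −1.67. The small difference of TRINITY_DN70355_c4_g3 ranged from −0.071 (without heat replicate 3) to 0.64 (without heat replicate 2). No other predicted target was called under any alternative run. The number of unigenes called was 2207 higher and 1715 lower with no filter, and 2634 higher where the higher group reached 5 TPM. With 1 library left out it was 1472 to 6235 higher and 1367 to 3699 lower. Rescaling by the median ratio turned the split from 4142 higher and 2793 lower to 2796 and 4148, and quantile normalization to 2976 and 3590. The miR172 names called lower, other than gma-miR172h-5p, were 1 with at least 5 RPM, 1 after rescaling by the median ratio, 5 with edgeR under TMM and 5 under RLE factors, and 1 to 7 with 1 library left out.

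Replicate numbers gave no sign of pairing control and heat libraries (correlations of deviations for equal numbers of −0.14, −0.06 and 0.14 in RNA-seq and −0.07, 0.08 and −0.09 in miRNA-seq). So few values cannot exclude a pairing. A replicate block left the differences of both coactivators at 2.38 and 2.26, gave 3296 unigenes higher and 2479 lower, and left 1 miR172 name called lower. Depth limits the lowest values, since 1 read stood for 0.490 to 2.09 RPM, and the reads behind the control TPM of TRINITY_DN48595_c0_g1 are unknown.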
